A study of Homo sapiens with 2 samples.

Results

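MHC class II genes, CD74 and CIITA were followed in RNA-Seq of RC77 T/E and MDA PCa 2b, 2 established human lines of prostate cancer (PCa) cells. The 10 genes were taken by symbol from the 21382 genes of the deposited table: the chains HLA-DRA, HLA-DRB1, HLA-DPA1, HLA-DPB1, HLA-DQA1 and HLA-DQB1, the peptide exchange factor chains HLA-DMA and HLA-DMB, the invariant chain CD74, and the transactivator CIITA. The group was chosen by its place in the class II pathway and selected on the TPM values of HLA-DRA, which is among the genes most skewed toward MDA PCa 2b, so the differences of its members are given as descriptions. All 10 genes were found in the table, and in 6 of them the mean of the lines reached 1 TPM.

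Total RNA of untreated cells was sequenced, with 1 library per cell line. MDA PCa 2b was grown in Kaighn's modified Ham's medium with fetal bovine serum, epidermal growth factor, insulin, hydrocortisone, cholera toxin and further supplements. RC77 T/E was grown in a keratinocyte medium with bovine pituitary extract and epidermal growth factor, so cell line and medium cannot be told apart. Neither line received interferon or any other treatment. Because each line is 1 library, no value has a replicate error, no difference has a replicate check, and no test was made.

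Levels are in TPM, a measure of transcript abundance per length on a fixed library total, so that genes can be compared with each other in a line. TPM keeps no read counts, and the depth behind each value is unknown. In the deposited table many values of 1 TPM or more have lost their decimal mark. The mark was kept or could be restored to 1 position for 9 of the 10 members. HLA-DQB1 has 3 possible positions that multiply its level by 10 or 100 in both lines alike. A gene listed at 0 may be a failed estimate, since EEF1A1, a translation elongation factor that every cell uses, was listed at 0 in MDA PCa 2b but at 2393 TPM in RC77 T/E. Of 20 genes that every cell uses, EEF1A1 was the 1 that was listed at 0 in either line. Therefore a 0 is reported only as listed, and no ratio is given against it. Such a gene is still counted and ranked by its difference of log2(TPM + 1), with the 0 taken as written.

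Class II molecules are heterodimers of an alpha and a beta chain that present peptides from endocytosed proteins to CD4+ T cells. The chains assemble in the endoplasmic reticulum around the invariant chain, which fills the groove until proteases trim it, and HLA-DM then exchanges the remaining fragment for peptide. The genes are constitutively active in professional antigen-presenting cells. In most epithelial cells they are induced by interferon gamma through CIITA, which binds no DNA itself but is recruited by factors sitting on the X and Y boxes of class II promoters.

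The members did not all differ in the same direction. In bulk RNA, fewer expressing cells and less RNA per cell cannot be told apart. At the threshold of 1 TPM, 5 members were expressed in MDA PCa 2b, where 49.6% of all genes of the table reached it, and 3 in RC77 T/E, where 52.8% did. On the log2(TPM + 1) scale, which understates the change of low genes, 4 members were at least 2-fold higher in MDA PCa 2b, namely HLA-DRA, HLA-DMA, HLA-DMB and HLA-DQA1, beside 11.4% of all genes of the table. Without the members listed at 0 the count was 3, and with a pseudocount of 0.1 TPM in place of 1 it was 6, since HLA-DPB1 and HLA-DQB1 then passed. CD74 alone among the members was higher in RC77 T/E by 2-fold or more, beside 11.3% of all genes. The remaining 5 members passed in neither direction. Among the 11624 genes whose mean reached 1 TPM, the same shares were 20.0% and 19.4%. The rule used this contrast, so nothing is read from the counts against these shares. The median difference of log2(TPM + 1), RC77 T/E minus MDA PCa 2b, was -0.67 over the members and 0.00 over all genes. It was -0.15 over genes whose mean reached 1 TPM, a general shift relative to which the differences below can be read. By level, the order in MDA PCa 2b was HLA-DRA, HLA-DMA, HLA-DMB, HLA-DQB1, HLA-DQA1, CD74, HLA-DPB1, HLA-DRB1, HLA-DPA1 and CIITA, with HLA-DQB1 moving to the place after HLA-DRA at the highest position of its mark. In RC77 T/E it was CD74, HLA-DMA, HLA-DQB1, HLA-DRB1, HLA-DQA1, CIITA and HLA-DMB, with HLA-DQB1 leading at the highest position and HLA-DRA, HLA-DPA1 and HLA-DPB1 listed at 0. With no replicate spread, it cannot be said which neighbours in these orders differ.

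**Figure D1:**
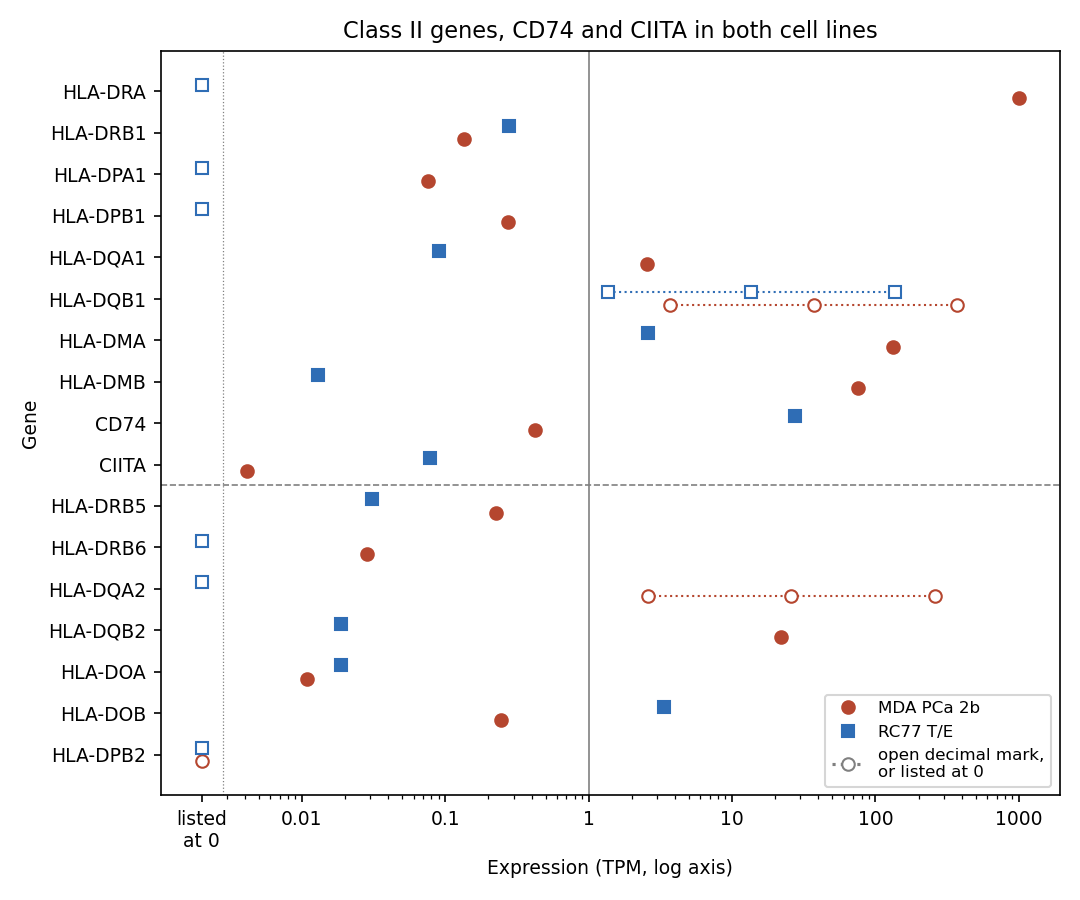
Level of each class II gene, CD74 and CIITA in MDA PCa 2b (circles) and RC77 T/E (squares), in TPM on a log axis, with the 10 members above the dashed line and 7 further class II genes under it. Open marks joined by dots are the possible positions of a lost decimal mark, open marks at the left edge are genes listed at 0, and HLA-DRA stands at 1002 TPM in MDA PCa 2b while CIITA lies under 0.1 TPM in both lines.

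CIITA, the master regulator of class II transcription, was close to absent from both libraries. It had 0.00410 TPM in MDA PCa 2b against 0.0780 TPM in RC77 T/E (chromosome 16, 10866222 to 10943021, GRCh38). Both values are far under 1 TPM, and the difference of log2(TPM + 1) was 0.10. With 1 library per line and unknown depth, the lines cannot be ordered by these values. How CIITA relates to the level of HLA-DRA was not tested. CIITA spans part of DEXI, a gene on the opposite strand with 28.7 TPM in MDA PCa 2b against 18.1 TPM in RC77 T/E, and whether the TPM values used the strand of the reads is not given in the sources used here. In the transcripts of GENCODE release 29, 18.3% of the stretches of 31 bases in CIITA also occur in transcripts of other genes.

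The factors that sit on class II promoters were present in both lines. RFX5, RFXAP and RFXANK form the regulatory factor X complex on the X box, CREB1 binds the adjoining X2 site, and NFYB and NFYC are subunits of nuclear factor Y on the Y box. All 6 were at 1 TPM or more in both lines. RFXANK had 44.0 TPM in MDA PCa 2b against 27.2 TPM in RC77 T/E, RFXAP 2.54 and 1.44 TPM, and CREB1 8.20 and 6.67 TPM. RFX5, whose decimal mark is open, had 32.7 and 17.9 TPM at the lower position and 10 times these at the higher. Each of the 6 was lower in RC77 T/E by value. NFYC alone was at least 2-fold higher in MDA PCa 2b, beside 11.4% of all genes. Its ratio was 2.35 at either position of its mark. NFYA, the third subunit, was not analysed here.

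Promoters of high and low genes were set side by side for the letters of these boxes. RefSeq promoters on GRCh38.p14 were at hand for 8 of the 10 members, and HLA-DRA and CIITA have no entry. The 250 bases before each start site were searched on both strands for letters of the X box, AGNNNCNGAT, and of the Y box, ATTGG, which do not overlap each other as printed here. The X letters are the bases shared by the 7 class II promoters in which CNGAT stood 20 to 25 bases before ATTGG, and they were set after these promoters had been looked at, so their presence in those 7 is no finding. The 5 stretches below, written 5′ to 3′ on the strand of the gene with the matched letters in capitals, are those of the DM pair, which was high in MDA PCa 2b, of HLA-DRB1, which was low in both lines, and of HLA-DQB1 with its near copy HLA-DQB2. All lie upstream of a RefSeq start site on the minus strand, and those of HLA-DMA and HLA-DQB1 fall inside the longer gene span that the deposited table lists.
HLA-DMA, chr6:32953160-32953226: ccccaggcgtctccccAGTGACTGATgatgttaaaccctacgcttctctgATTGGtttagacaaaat
HLA-DMB, chr6:32941066-32941132: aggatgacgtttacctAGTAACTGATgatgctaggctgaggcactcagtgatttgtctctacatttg
HLA-DRB1, chr6:32589878-32589943: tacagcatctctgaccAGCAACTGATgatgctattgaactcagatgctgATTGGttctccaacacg
HLA-DQB1, chr6:32666729-32666794: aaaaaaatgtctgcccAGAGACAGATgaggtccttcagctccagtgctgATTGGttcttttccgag
HLA-DQB2, chr6:32763604-32763669: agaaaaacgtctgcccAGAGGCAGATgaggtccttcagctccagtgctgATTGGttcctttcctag

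In HLA-DMA the X letters began 113 bases before the start site and 24 bases lay between them and the Y letters. In HLA-DRB1, HLA-DQB1 and HLA-DQB2 the gap was 23 bases. HLA-DMB had the X letters, which its promoter did not help to set, 88 bases before its start site, with no Y letters within 40 bases after them. Of the 35116 promoter windows of this length, 8.26% held the X letters, 32.0% the Y letters, and 0.228% the X letters followed within 40 bases by the Y letters. HLA-DQA1, HLA-DPA1, HLA-DPB1 and CD74 had no match to the X letters, which says only that these letters are not in those windows. Beside HLA-DMA, HLA-DRB1 and HLA-DQB1, the promoters that set the X letters are those of HLA-DRB5, HLA-DQB2, HLA-DOA and HLA-DOB. The stretches of HLA-DQB1 and HLA-DQB2 differed at 5 of 66 bases, and those of HLA-DRB1 and HLA-DRB5 at 1 of 66. Among the genes whose promoters set the X letters, HLA-DMA was high in MDA PCa 2b, while HLA-DRB1 and HLA-DOA were low in both lines. How these letters relate to the levels was not tested.

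HLA-DRA, the nearly invariant alpha chain of HLA-DR, was the most abundant member. It had 1002 TPM in MDA PCa 2b and was listed at 0 in RC77 T/E (chromosome 6, 32439878 to 32445046, plus strand). In MDA PCa 2b only 138 genes of the table had a higher level, and 27 genes had a larger difference of log2(TPM + 1) toward that line. The table holds 29 genes whose level of 100 TPM or more in MDA PCa 2b stands against a listed 0 in RC77 T/E, and 33 genes with the reverse pattern, open marks being at their lowest position. With open marks at their highest position these were 135 and 182 genes. HLA-DRA is therefore 1 of a set of genes whose 0 stands against a high value in the other line, as EEF1A1 is in the reverse direction. None of the stretches of 31 bases in HLA-DRA transcripts occurred in the transcripts of another gene. The deposited table holds 7 loci under the symbol HLA-DRA, of which 1 is above 0. A division of reads among these loci was not tested.

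The beta chains that pair with HLA-DRA were near the floor in both lines. HLA-DRB1 had 0.136 TPM in MDA PCa 2b against 0.280 TPM in RC77 T/E (chromosome 6, 32577902 to 32589848, minus strand). HLA-DRB5, a second functional DR beta gene, had 0.225 and 0.0307 TPM, and the pseudogene HLA-DRB6 had 0.0284 TPM in MDA PCa 2b and was listed at 0 in RC77 T/E. In MDA PCa 2b the level of HLA-DRA was therefore 7388 times that of HLA-DRB1 and 2775 times the sum of HLA-DRB1 and HLA-DRB5. DR beta genes are highly polymorphic, and how well the alleles of these lines match the reference was not tested. Of the stretches of 31 bases in HLA-DRB1, 24.6% also occur in other genes, 19.5% in HLA-DRB5, so a split of reads between the copies is uncertain. The deposited table holds 5 loci under the symbol HLA-DRB1, of which 1 is above 0. HLA-DRB3 and HLA-DRB4, which are carried on some haplotypes only, were not analysed here, and a DR beta chain from them is not covered by these ratios.

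HLA-DP was low throughout. HLA-DPA1 had 0.0761 TPM and HLA-DPB1 0.275 TPM in MDA PCa 2b, and both were listed at 0 in RC77 T/E. The genes lie head to head on chromosome 6 (33064569 to 33080775 on the minus strand and 33075990 to 33089696 on the plus strand) and overlap each other. In MDA PCa 2b neither reached 1 TPM. The sign of the HLA-DPA1 difference depended on the scale: it was -0.11 as deposited and 0.05 after centring on the general shift. The pseudogene HLA-DPB2 was listed at 0 in both lines.

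HLA-DQ was the only classical pair with both chains at 1 TPM or more in a line. HLA-DQA1 had 2.55 TPM in MDA PCa 2b against 0.0911 TPM in RC77 T/E, a ratio of 28.1 (chromosome 6, 32628179 to 32647062, plus strand). HLA-DQB1 had 3.70 TPM in MDA PCa 2b against 1.37 TPM in RC77 T/E at the lowest position of its mark, 37.0 and 13.7 TPM at the middle one, and 370.2 and 136.6 TPM at the highest (chromosome 6, 32659467 to 32668383, minus strand). Its ratio between the lines was 2.71 at every position, whereas its difference of log2(TPM + 1) was -0.99 at the lowest and -1.43 at the highest, which would bring the members at least 2-fold higher in MDA PCa 2b from 4 to 5. HLA-DQB1 exceeded HLA-DQA1 in both lines at every position, by 1.45 times in MDA PCa 2b but 15.0 times in RC77 T/E at the lowest.

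The second DQ locus showed the same side. HLA-DQB2 had 22.0 TPM in MDA PCa 2b against 0.0186 TPM in RC77 T/E (chromosome 6, 32756098 to 32763532, minus strand), a difference of log2(TPM + 1) of -4.50. HLA-DQA2 had 2.59, 25.9 or 259.0 TPM in MDA PCa 2b, depending on the position of its mark, and was listed at 0 in RC77 T/E. In their transcripts 7.46% of the stretches of HLA-DQB1 occur in HLA-DQB2 and 12.1% of those of HLA-DQA1 in HLA-DQA2, so reads could be divided between the copies.

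Both chains of HLA-DM, which catalyses peptide exchange on class II molecules in the endosome, were high in MDA PCa 2b and low in RC77 T/E. HLA-DMA had 132.2 TPM in MDA PCa 2b against 2.61 TPM in RC77 T/E, a ratio of 50.7 (chromosome 6, 32948613 to 32969094, minus strand). HLA-DMB had 75.5 TPM in MDA PCa 2b against 0.0129 TPM in RC77 T/E, a difference of log2(TPM + 1) of -6.24 (chromosome 6, 32934629 to 32941028, minus strand). The ratio of HLA-DMA to HLA-DMB was 1.75 in MDA PCa 2b but 201.6 in RC77 T/E, where the level of HLA-DMB is too low to weigh. In GENCODE release 29 HLA-DMA overlaps the neighbouring gene BRD2 on the opposite strand by 435 bases, and both DM genes overlap AL645941.2, a protein-coding gene model on the same strand that shares 10.2% of the stretches of HLA-DMA and 28.8% of those of HLA-DMB. The part of reads from these genes in the DM values was not tested.

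HLA-DO, which restrains HLA-DM, was low except for 1 chain in RC77 T/E. HLA-DOB had 0.246 TPM in MDA PCa 2b against 3.37 TPM in RC77 T/E, a difference of log2(TPM + 1) of 1.81 and the largest toward RC77 T/E among the 7 other class II genes. It shares 35.6% of its stretches with AL669918.1, a gene model not analysed here, so its value is uncertain. HLA-DOA, its partner chain, had 0.0108 and 0.0187 TPM. Of these 7 genes, 2 were at least 2-fold higher in MDA PCa 2b (HLA-DQB2 and HLA-DQA2), beside 11.4% of all genes. In RC77 T/E the count was 1, beside 11.3%, and 4 passed in neither direction. Nothing is read from these counts against the shares.

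CD74, the invariant chain that chaperones newly made class II dimers and is itself a surface receptor for the cytokine MIF, had the opposite pattern to HLA-DRA and HLA-DM. It had 0.424 TPM in MDA PCa 2b against 27.5 TPM in RC77 T/E, a ratio of 64.9 (chromosome 5, 150401637 to 150412969, minus strand). In MDA PCa 2b the level of HLA-DRA was 2363 times that of CD74, whereas in RC77 T/E the member next to CD74 was HLA-DMA with 2.61 TPM, unless the mark of HLA-DQB1 stands at its middle or highest position. None of the stretches in CD74 transcripts occurred in another gene. In RC77 T/E 1633 genes had a higher level than CD74 with open marks at their lowest position, and 6999 with them at their highest.

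**Figure D2:**
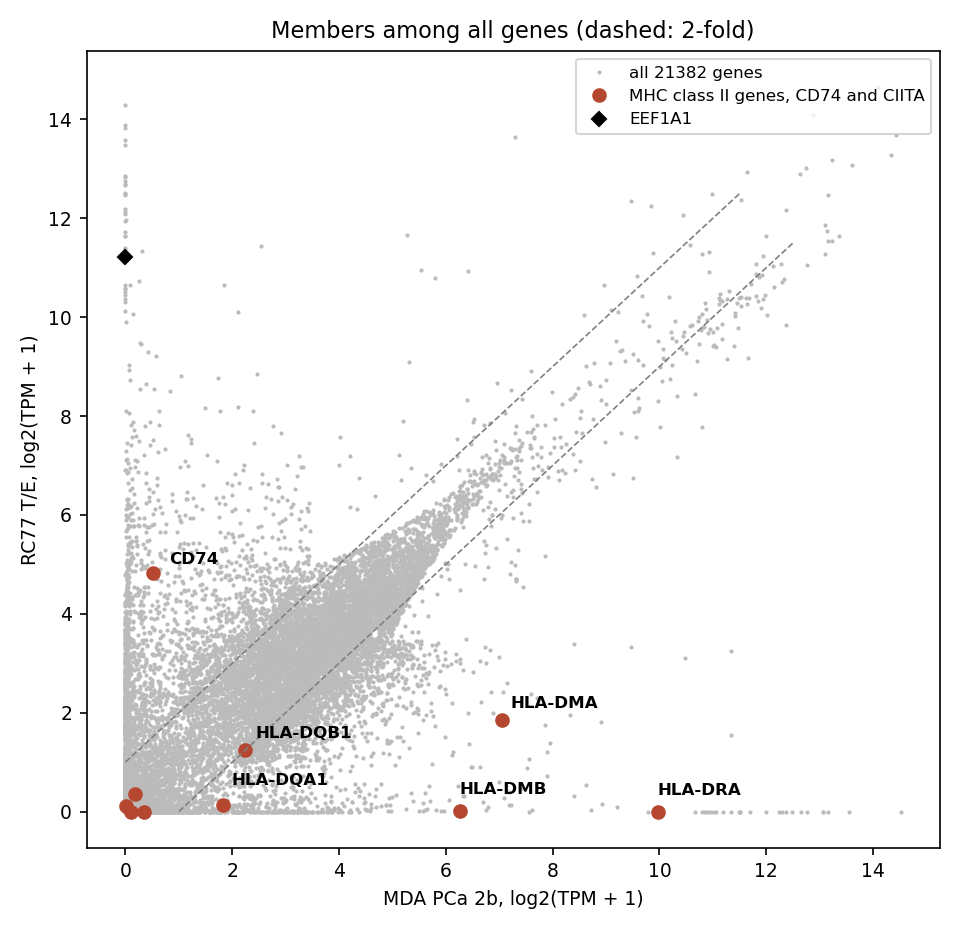
Each of the 21382 genes by log2(TPM + 1) in MDA PCa 2b (horizontal) and in RC77 T/E (vertical), open decimal marks being at their lowest position, with the 10 members in red and dashed lines at a difference of 2-fold. HLA-DRA, HLA-DMB and HLA-DMA lie far to the right near the lower edge, CD74 lies on the RC77 T/E side, and EEF1A1 lies on the left edge among the genes listed at 0 in MDA PCa 2b.

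On chromosome 6 the difference changed from gene to gene. The region from 100000 bases before HLA-DRA to 100000 bases after HLA-DPB2 (32339878 to 33229084) holds 27 genes of the table, 15 of them class II genes. Of these 15, the level reached 1 TPM for 7 in MDA PCa 2b but for 3 in RC77 T/E. Of the 12 others 9 reached it in each line. Over all genes of the table the shares were 49.6% for MDA PCa 2b against 52.8% for RC77 T/E. At least 2-fold higher in MDA PCa 2b were 6 class II genes and 2 others, beside 11.4% of all genes. The 2 others were the chromatin reader BRD2 with 122.3 and 39.1 TPM and the zinc transporter SLC39A7 with a ratio of 2.52. Toward RC77 T/E the call was made for 1 class II gene and 1 other, beside 11.3%. The class II genes include members, and the rule that chose the members used this contrast. Nothing is therefore read from these counts against the other genes or the shares. Between HLA-DOB and HLA-DMB lie 4 genes of class I antigen processing, and 3 of these were at similar levels in both lines. The peptide transporter TAP2 had 43.5 TPM in MDA PCa 2b against 48.8 TPM in RC77 T/E, TAP1 45.5 and 41.7 TPM and the immunoproteasome subunit PSMB8 42.6 and 33.8 TPM, the last 2 at the lower position of their marks. The fourth, PSMB9, another immunoproteasome subunit, had 6.43 and 23.9 TPM at the lower position. The DM genes thus lie between these 4 genes, none of which was higher in MDA PCa 2b by 2-fold or more, and BRD2, which was. HLA-DOA, on the other side of BRD2, was near the floor in both.

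**Figure D3:**
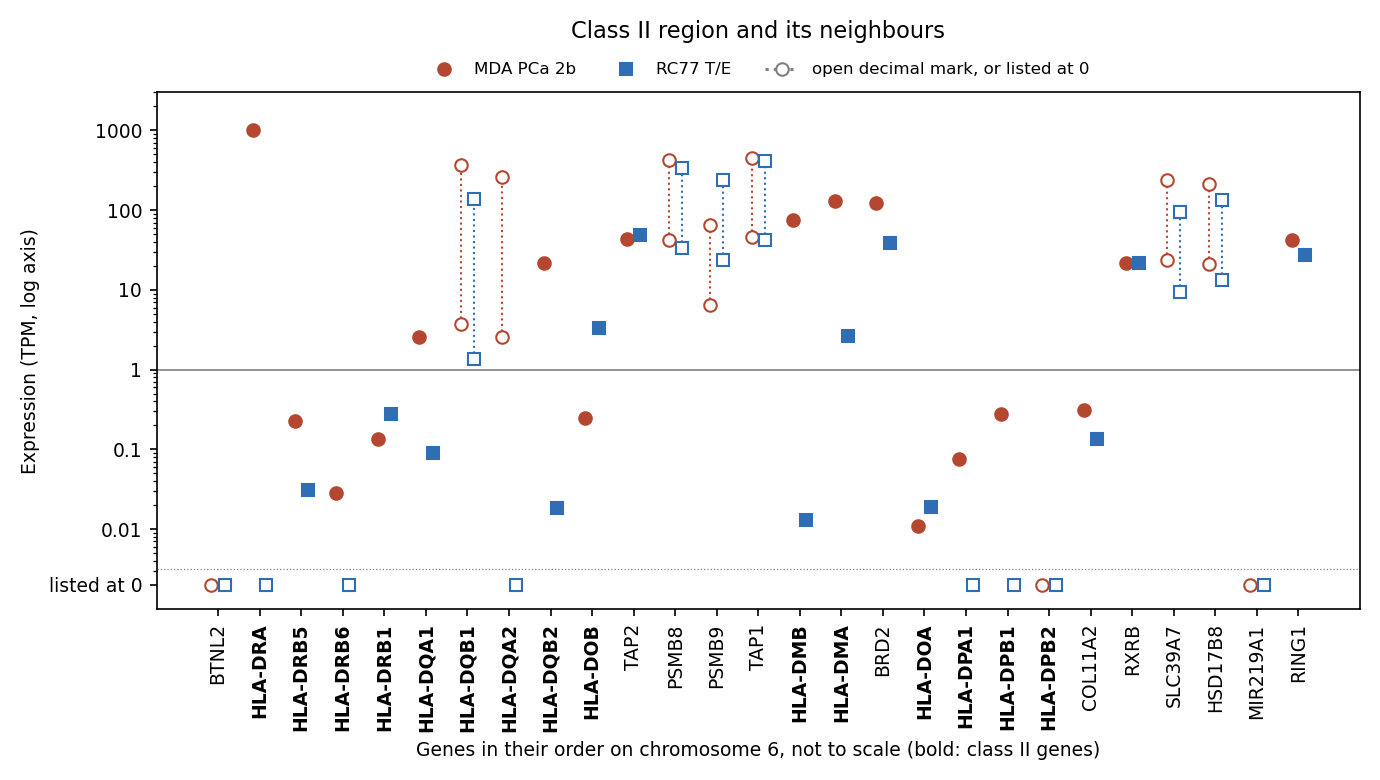
Levels of the 27 genes of the class II region in their order on chromosome 6, in TPM on a log axis, for MDA PCa 2b (circles) and RC77 T/E (squares), with class II genes in bold. Open marks joined by dots are the lowest and highest position of a lost decimal mark and open marks at the bottom are genes listed at 0. HLA-DRA, HLA-DQB2, HLA-DMB and HLA-DMA stand high in MDA PCa 2b only, while TAP2, TAP1 and RXRB are level.

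Interferon gamma is the main inducer of class II genes in epithelial cells. Its own gene, IFNG, was listed at 0 in both lines. Of 10 genes of its axis, 6 were higher by 2-fold or more in RC77 T/E, beside 11.3% of all genes, and 0 in MDA PCa 2b, beside 11.4%. Among genes whose mean reached 1 TPM, these shares were 19.4% and 20.0%. The lists were chosen with earlier results of these data known, so nothing is read from their counts against these shares. The receptor chains IFNGR1 and IFNGR2 were higher in RC77 T/E by ratios of 2.76 and 4.16, the kinases JAK1 and JAK2 by 18.8 and 3.18, and these ratios hold at every position of the open marks. SOCS1, a feedback inhibitor of the pathway, had 0.307 TPM in MDA PCa 2b against 4.12 TPM in RC77 T/E, and PRDM1, a repressor of CIITA in plasma cells, 0.118 and 2.01 TPM. IRF1 and USF1, which act on an inducible CIITA promoter, had 4.10 and 28.8 TPM in MDA PCa 2b and 5.24 and 19.8 TPM in RC77 T/E.

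Of 12 genes that respond to interferon gamma, 4 were higher by 2-fold or more in RC77 T/E, beside 11.3% of all genes. In MDA PCa 2b the count was 0, beside 11.4%. The chemokine CXCL11 had 0.0782 TPM in MDA PCa 2b against 5.10 TPM in RC77 T/E, and the GTPase GBP1 0.646 and 7.98 TPM. CXCL10 was listed at 0 in MDA PCa 2b and had at least 6.80 TPM in RC77 T/E, and PSMB9 is described above. CXCL9, GBP2, GBP4, GBP5 and IDO1 were under 1 TPM in both lines. With a pseudocount of 0.1 TPM in place of 1, the count in RC77 T/E was 7. How these response genes relate to the levels of HLA-DRA, HLA-DMA and HLA-DMB was not tested.

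The endosomal enzymes that cut the invariant chain and load peptides lay mostly on the side of RC77 T/E, as CD74 did. Of 8 genes, 5 were at least 2-fold higher there, beside 11.3% of all genes, and 1 in MDA PCa 2b, beside 11.4%. Cathepsin S (CTSS), which completes the trimming of the invariant chain in antigen-presenting cells, had 0.190 TPM in MDA PCa 2b against 2.32 TPM in RC77 T/E. Cathepsin V (CTSV), which does so in thymic epithelium, had 0.138 and 28.3 TPM. The cathepsins CTSB and CTSD and the thiol reductase IFI30 were higher in RC77 T/E by ratios of 4.85, 2.41 and 5.03, whereas the protease LGMN was higher in MDA PCa 2b by 2.39, a call that was lost after centring on the general shift. Cathepsin L (CTSL) had 51.4 and 63.0 TPM, and SPPL2A, which clears the last fragment of the invariant chain, was 1.48 times higher in MDA PCa 2b.

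Class I genes, which present peptides from inside the cell, differed in another way. Of 9 genes, 3 were higher by 2-fold or more in RC77 T/E, beside 11.3% of all genes, and 0 in MDA PCa 2b, beside 11.4%. HLA-B, HLA-E and HLA-F were higher by ratios of 2.19, 15.8 and 31.1, while HLA-C was at a ratio of 0.868. Beta-2-microglobulin (B2M), the shared light chain, had 628.9 TPM in MDA PCa 2b against 643.7 TPM in RC77 T/E. NLRC5, the class I counterpart of CIITA, was under 1 TPM in both lines, at 0.227 and 0.456 TPM. In MDA PCa 2b HLA-DRA was thus at a higher level than B2M.

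T cell contact genes were examined beside the class II genes. CD80, CD86 and CD40, the costimulatory molecules of professional antigen-presenting cells, were at most 0.0179 TPM in MDA PCa 2b against 0.129 TPM in RC77 T/E. ICAM1 and CD58, adhesion ligands of T cells, were higher in RC77 T/E by ratios of 31.8 and 9.80, and ICOSLG was higher in MDA PCa 2b by 4.22.

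**Figure D4:**
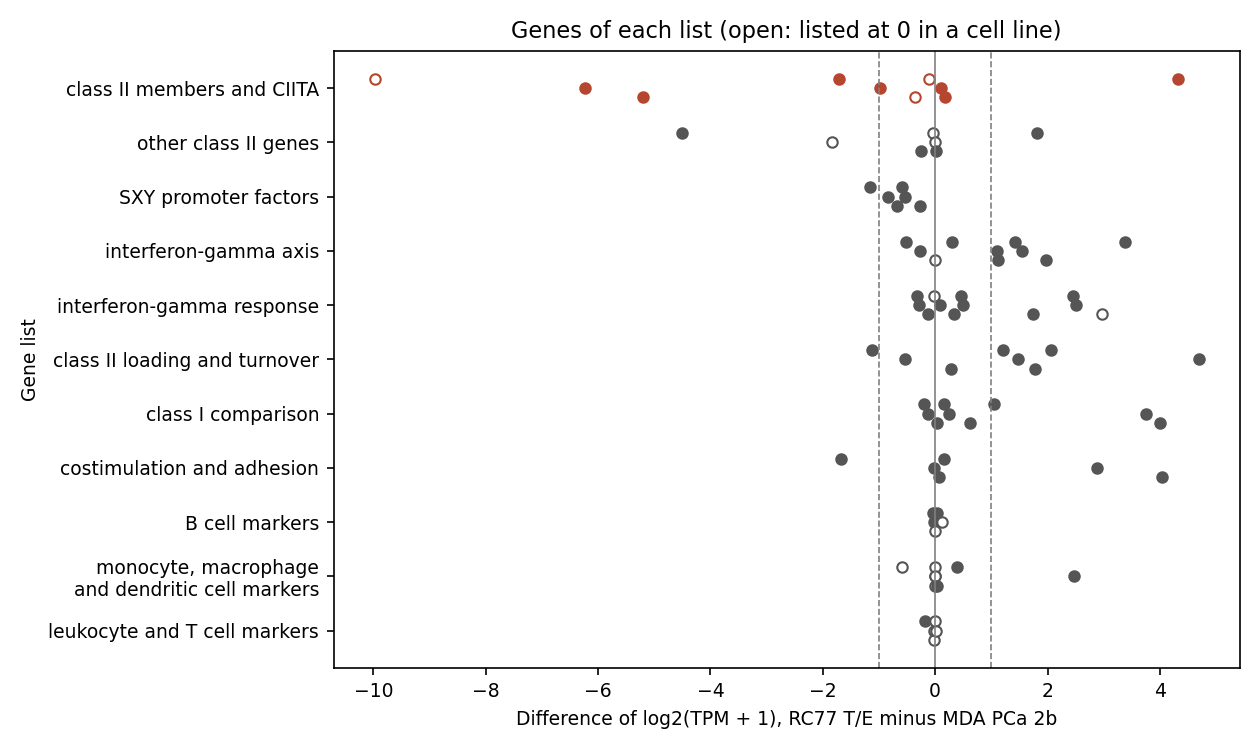
Difference of log2(TPM + 1), RC77 T/E minus MDA PCa 2b, of every gene in 11 lists, with open decimal marks at their lowest position and dashed lines at 2-fold. Points to the left are higher in MDA PCa 2b and open points are genes listed at 0 in a cell line. The members spread from HLA-DRA at the far left to CD74 at 4.32, while the interferon gamma, loading and class I lists lie mostly at or to the right of 0.

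The markers of antigen-presenting cells, leukocytes and T cells analysed here were under 1 TPM in both lines, except CD14 in RC77 T/E. Of 5 B cell markers, 0 reached 1 TPM in either line, MS4A1 was listed at 0 in both, and the summed level was 0.204 TPM in MDA PCa 2b against 0.261 TPM in RC77 T/E. Of 8 markers of monocytes, macrophages and dendritic cells, 0 reached 1 TPM in MDA PCa 2b, where the sum was 0.617 TPM, and 1 in RC77 T/E, CD14 with 4.92 TPM of a sum of 5.30 TPM. CD1C, CLEC9A and FLT3, which define dendritic cells and their precursors, were listed at 0 in both lines. Of 5 leukocyte and T cell markers, the highest was CD4 with 0.146 TPM in MDA PCa 2b, and PTPRC, which encodes the common leukocyte antigen CD45, had 0.0113 TPM there and was listed at 0 in RC77 T/E. The summed markers of these cells in MDA PCa 2b are thus each under 1 TPM, beside 1002 TPM of HLA-DRA.

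The prostate markers separated the lines. KLK3, the gene of prostate-specific antigen, stood at 5323 TPM in MDA PCa 2b and was listed at 0 in RC77 T/E. The basal keratin KRT5 had 0.00435 TPM in MDA PCa 2b against 4027 TPM in RC77 T/E, KRT14 37.4 and 3255 TPM, and TP63, a basal transcription factor, was listed at 0 in MDA PCa 2b and had 5.17 or 51.7 TPM in RC77 T/E. KRT18, a keratin of simple epithelia, was alike at 320.5 and 324.8 TPM, and so was KRT8 at a ratio of 0.814. The difference in class II genes therefore runs along with a difference in KLK3 and in basal markers, and with 1 library per line these cannot be told apart.

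The genes nearest to HLA-DRA in both lines, by distance of log2(TPM + 1) among 11124 protein-coding genes with 1 position of the mark, were AZGP1, PRAC1, TMPRSS2, DAPL1 and CLDN3. AZGP1, a secreted glycoprotein of glandular epithelium, had 591.2 TPM in MDA PCa 2b against 0.0636 TPM in RC77 T/E, at a distance of 0.77. TMPRSS2, a transmembrane serine protease, had 482.9 and 0.108 TPM, and PRAC1 1912 TPM in MDA PCa 2b beside a listed 0 in RC77 T/E. Those nearest to CD74 were PHLDB2, CYP27B1, KLF7, ICAM5 and DUSP23, at distances from 0.06 to 0.22. PHLDB2, a protein of the cell cortex, had 0.398 TPM in MDA PCa 2b against 28.6 TPM in RC77 T/E. The likeness rests on 2 libraries and describes position in these libraries only.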

How the data were processed

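The authors isolated total RNA with TRIzol, made directional paired-end libraries and deposited TPM per locus for both cell lines, with their mean and standard error. The submitters' processing notes name CASAVA, FastQC 0.11.9, Trimmomatic 0.38 and Salmon 1.2.0 and the build GRCh38. Index, annotation and strand setting are not given in the sources used here, and no read counts were used, so depth and precision are unknown.

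The deposited table writes many values of 1 TPM or more with grouping commas in place of the decimal mark. Values without a comma, such as that of HLA-DRA in MDA PCa 2b, were read as written. Plain TPM had been assumed in the design, so the mark was first restored: a position with 1 to 3 digits before it and at least 3 after it was kept if it gave the deposited mean and standard error. Of 22704 loci, 16212 had 1 position and 6492 had 2 or 3, for which the lowest was used. The restoration was run on 5000 simulated rows that had lost the mark by the rule it assumes. Of these, 3953 kept 1 position, which was the true one in 3953. This checks the code and cannot show that the deposited values follow that rule. Loci of one symbol were summed. Of the 50 rows of the members, 10 were above 0, 1 per gene. The difference between the lines was log2((RC77 T/E TPM + 1)/(MDA PCa 2b TPM + 1)), called at 1 or more in size.

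The members, lists and tests were chosen with earlier results of these data known. Named are the members, the genes of 11 lists fixed beside them, the genes within 100000 bases of the class II region, and the 5 protein-coding genes nearest to HLA-DRA and to CD74. EEF1A1 comes from a further list of genes that every cell uses. DEXI, AL645941.2 and AL669918.1 overlap or share bases with class II genes and were chosen after their values were seen. Positions are those of the deposited table; 5 of 10 members have the same start and end in GENCODE release 29 and 10 of 10 overlap, and strands, overlaps and shared stretches of 31 bases are from that release. Promoters are from RefSeq. Alternatives changed the threshold, pseudocount, scaling, fold, use of loci and background, and, chosen after seeing the data, the decimal position and the genes listed at 0. HLA-DRB9, HLA-DQB1-AS1, HLA-DPA2, HLA-DPA3, MARCHF1 and MARCHF8 were also not analysed here. Scripts ran in Python 3.11.15 (numpy 2.4.6, matplotlib 3.10.9). A few further members of these lists are not reported and were dropped from all counts and sums.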

Additional observations from a re-analysis of the deposited data

How the results depend on the processing

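With 1 library per cell line, no alternative comes with a replicate error, and no replicate could be left out. No paired analysis was possible because the lines have 1 library each and share no replicate number. With a pseudocount of 0.1 TPM the median difference of the members moved from -0.67 to -1.64, the members at least 2-fold higher in MDA PCa 2b went from 4 to 6, and HLA-DMB moved from -6.24 to -9.39. With a threshold of 5 TPM, 3 members in place of 5 counted as expressed in MDA PCa 2b, and 1 in place of 3 in RC77 T/E. Of the values of single members and lists under these and the other alternatives, 12 moved by more than 1.5 times, and 108 did not. None of the members called in a direction changed it under any alternative run. Leaving out the members listed at 0 brought the count higher in MDA PCa 2b from 4 to 3. The depth behind the values near 0 is unknown.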
